A study of Mus musculus with 7 samples.

Results

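TREM2 lipid-associated macrophages are described here through 6 genes, Trem2, Apoe, Fabp5, Gpnmb, Spp1 and Cd9, which were chosen by name from 23420 gene rows measured in mouse heart. All 6 were found in the table. Total RNA of cardiac ventricle, given in the tissue label as whole heart, was sequenced in 7 mice, 1 library each. The 4 control mice were Ctla4+/+;Pdcd1-/- and the 3 mice modelling immune checkpoint inhibitor (ICI) myocarditis were Ctla4+/-;Pdcd1-/-. All were untreated and between 3 and 6 weeks old, so that no inhibitor drug was given, every animal lacked Pdcd1 by its label, and the groups differed by 1 copy of Ctla4. Ctla4 and Pdcd1 encode CTLA-4 and PD-1, receptors that restrain T cells. The strain and the sex were not in the labels.

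TREM2 is a lipid-sensing receptor of macrophages that signals through the adaptor TYROBP and the kinase SYK. Macrophages that take up dead cells and lipid can enter a TREM2-dependent state, known from fat tissue, atherosclerotic plaques and injured hearts, in which genes for lipid transport, lysosomal degradation and matrix signals are expressed together. Several of these genes are not restricted to macrophages: Apoe, Cd9 and Fabp5 are also used by other cells of the heart, such as endothelial cells, fibroblasts and cells of the nerves. Heart tissue was measured in bulk, so that more cells of a type and more RNA per cell cannot be told apart.

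Each library held between 20931730 and 39037176 recovered reads. Normalized counts of Ctla4 lay between 29.2 and 114 in controls and between 251 and 373 in ICI-myocarditis, and those of Pdcd1 between 2.50 and 244 and between 1096 and 1481, so that neither gene checked the genotype labels. Heart muscle markers were abundant in every library. Of these, Myh6 was at 700585 to 1196025 normalized counts in controls and 402804 to 669922 in ICI-myocarditis, without overlap. All 6 heart muscle markers had log2 fold changes below 0, with a median of -0.77, and limma called 0 of them in either direction, with 2 lower at an unadjusted p under 0.05. The share of all tested genes at that unadjusted p was not counted. Control 2 held more T cell RNA than the other controls, with a summed level of 5 T cell markers of 1158 normalized counts against 96.3 to 144, where ICI-myocarditis libraries held 5464 to 8319. Its sums were also the highest of the controls for macrophage (15259 against 10602 to 11108), monocyte (3116 against 1729 to 2478) and dendritic cell markers (2257 against 686 to 1170). For resident macrophage markers its sum was the lowest (13574 against 13728 to 14782).

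In GRCm38 (GENCODE M21), Trem2 lies on chromosome 17 (48346401 to 48354147, plus strand), Gpnmb on chromosome 6 (49036546 to 49070929, plus strand), Spp1 on chromosome 5 (104435118 to 104441050, plus strand), Apoe on chromosome 7 (19696109 to 19699188, minus strand), Cd9 on chromosome 6 (125460266 to 125494791, minus strand) and Fabp5 on chromosome 3 (10012548 to 10016607, plus strand). All 6 are protein-coding, and the values are per gene. Fabp5 matched 2 other annotated transcript genes (Gm14328 and Gm6166) at 95% identity or more over at least 200 bases. Reads of Fabp5 may therefore be shared with these copies. Cd9 overlaps 2 genes of the opposite strand (Gm28809 and Gm26728), and the use of strand in counting is not given in the sources used here, so reads of Cd9 and of these genes may not have been told apart. Gm26728 matches Cd9 at 95% identity or more, and this match may be the overlap itself. Spp1 overlaps Gm42793 on its own strand. The other 3 genes had neither an overlapping gene nor such a copy.

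The promoters of the 3 genes that rose are printed because limma called these members higher. Each window runs from 250 bases before to 50 after a RefSeq start site (GRCm38.p6, 5′ to 3′ on the gene's strand), on chr17:48346151-48346450 for Trem2, chr6:49036268-49036567 for Gpnmb and chr5:104434861-104435160 for Spp1. Capitals mark matches to 5 motifs searched, the E-box CACGTG, the M-box TCATGTG and the AP-1 motif TGANTCA with the PU.1 core GAGGAAGT on both strands, and TATAAA on the printed strand.
Trem2: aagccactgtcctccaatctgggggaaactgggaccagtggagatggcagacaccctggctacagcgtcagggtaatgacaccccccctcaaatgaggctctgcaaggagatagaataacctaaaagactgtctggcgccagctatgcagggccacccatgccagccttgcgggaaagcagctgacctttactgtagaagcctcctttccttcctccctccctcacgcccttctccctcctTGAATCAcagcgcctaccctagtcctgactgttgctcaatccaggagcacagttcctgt
Gpnmb: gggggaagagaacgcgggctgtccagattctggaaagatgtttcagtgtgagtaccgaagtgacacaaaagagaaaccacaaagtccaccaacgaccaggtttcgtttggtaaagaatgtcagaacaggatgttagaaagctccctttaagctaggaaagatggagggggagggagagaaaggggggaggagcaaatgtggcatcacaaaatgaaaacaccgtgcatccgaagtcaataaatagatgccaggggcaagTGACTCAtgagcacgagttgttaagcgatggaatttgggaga
Spp1: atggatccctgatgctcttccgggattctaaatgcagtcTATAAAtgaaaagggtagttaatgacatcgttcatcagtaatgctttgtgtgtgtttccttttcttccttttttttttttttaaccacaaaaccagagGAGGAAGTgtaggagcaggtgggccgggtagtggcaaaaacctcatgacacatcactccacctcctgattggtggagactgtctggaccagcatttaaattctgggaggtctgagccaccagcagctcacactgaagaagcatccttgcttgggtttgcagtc

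The AP-1 motif began 9 bases before the start site in Trem2 and at base 9 after it in Gpnmb. It was found in 7.81% of 32851 promoter windows of the same length. Spp1 held the PU.1 core (3.20% of windows) at base -113 and TATAAA (8.32% of windows) at base -211. The E-box (7.15% of windows) and the M-box (3.77% of windows) were not among the letters of these 3 windows. No matches overlapped each other. A second Spp1 window and 3 Apoe windows were also in the RefSeq table, along with 1 for Cd9. These matches describe letters and not binding.

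The 6 genes did not move as a block. Trem2, Gpnmb and Spp1 rose in ICI-myocarditis, Fabp5 fell, and Apoe and Cd9 did not pass the test. Of 15258 genes tested with limma at an adjusted p of 0.05, 11.7% were called higher and 4.00% lower, so 3 of 6 higher and 1 of 6 lower are the members' counts against that background. Without overlap between groups, 4 members were higher (17.3% of all tested genes) and 1 lower (11.3%, with 28.6% in either direction). The median log2 fold change of the 6 genes was 1.97, against -0.02 over all tested genes. All 6 passed the filter of 10 normalized counts in 3 libraries. Spp1 passed it through the 3 ICI-myocarditis libraries and control 2, with the other controls below 10.

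**Figure D1:**
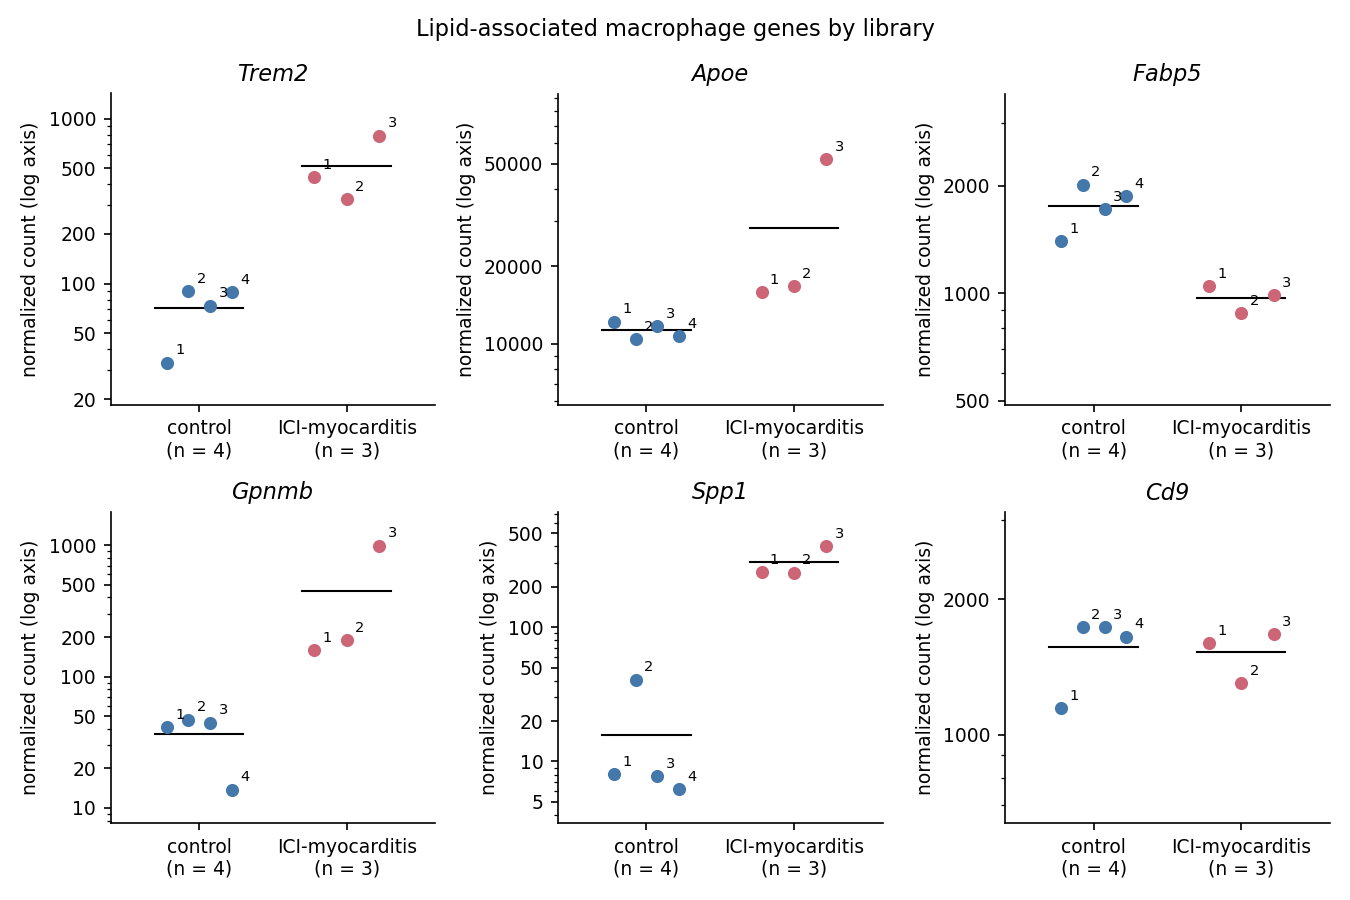
Normalized counts of the 6 genes (log axis, a different range in each panel) in 4 control libraries (blue) and 3 ICI-myocarditis libraries (red), with replicate numbers beside the points and group means as bars. The groups are apart for every gene except Cd9, ICI-myocarditis 3 is far above the other 2 libraries for Apoe and Gpnmb, and the Fabp5 points are lower in ICI-myocarditis.

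Trem2, the receptor itself, was at 33.3, 90.1, 73.7 and 88.8 normalized counts in controls 1 to 4. It was at 440.0, 325 and 789 in ICI-myocarditis 1 to 3. The lowest ICI-myocarditis library was above every control, with control 1 lowest and ICI-myocarditis 3 highest. Group means were 71.5 ± 26.5 (SD, n = 4) and 518 ± 241 (SD, n = 3). The log2 fold change of Trem2 was 2.84 (SE 0.426, limma adjusted p = 0.00426).

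Most genes of the TREM family and TREM2 signalling list rose. Of 13 tested, 10 were called higher and 0 lower by limma (11.7% and 4.00% of all tested genes). The median log2 fold change was 2.39, against -0.02 over all tested genes. Beside signalling genes, the list holds other receptors of the family, such as Treml2 and Treml4. T cell and monocyte markers were called higher too, at 5 of 5 and 5 of 6 by limma. The part of such cells in the levels of this list was not tested. edgeR called 10 higher and 0 lower, and 0 genes were lower at an unadjusted p under 0.05. Tyrobp, which encodes the adaptor that carries the signal, was at 248 to 464 normalized counts in controls and 1619 to 2853 in ICI-myocarditis, a ratio of means of 6.06 (limma adjusted p = 0.00251). Syk, the kinase recruited to TYROBP, was already abundant (1156 to 1330) and reached 1941 to 3043, a log2 fold change of 0.93 (limma adjusted p = 0.0136). Plcg2, a phospholipase downstream of SYK, rose by 1.52 (limma adjusted p = 0.00825). Adam17, a protease that sheds TREM2 from the surface, was higher in every ICI-myocarditis library but did not pass (log2 fold change 0.49, limma adjusted p = 0.118). Trem1, Trem3 and Treml1 were too low to be tested. Among the 10 called, Treml4 reached 10 normalized counts only in the 3 ICI-myocarditis libraries and control 2.

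Apoe, which encodes the lipid carrier apolipoprotein E, a ligand of TREM2, was the most abundant of the 6. Controls 1 to 4 had 12184, 10458, 11746 and 10726 normalized counts. ICI-myocarditis 1 to 3 had 15910, 16736 and 52085. All 3 lay above every control, yet 1 library was far above the others, at 3.19 times the mean of ICI-myocarditis 1 and 2. Means were 11279 ± 820.0 (SD, n = 4) and 28244 ± 20651 (SD, n = 3). The log2 fold change of Apoe was 1.09 (SE 0.409, 95% interval 0.17 to 2.02) and did not pass (limma adjusted p = 0.107). Without ICI-myocarditis 3 it was 0.54 (limma adjusted p = 0.317). The authors' deposited table gave Apoe a log2 fold change of 1.32 with an adjusted p of 0.0113, below the threshold, and DESeq2 rerun on recovered reads also called it.

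Genes that handle cholesterol and lipoprotein around Apoe were divided. Of 21 tested, limma called 6 higher and 1 lower (11.7% and 4.00% of all tested genes), with a median of 0.45. Lrp8, an apolipoprotein E receptor, was at 18.8 to 29.6 normalized counts in controls and 214 to 504 in ICI-myocarditis, a log2 fold change of 3.70 (limma adjusted p = 0.00251). Abcg1, a cholesterol exporter, rose by 2.40 (limma adjusted p = 0.00492) and Soat1, which esterifies cholesterol for storage, by 2.09 (limma adjusted p = 0.00519). The related exporter Abca1, the lysosomal cholesterol transporter Npc1 and the regulator Srebf1 had log2 fold changes of 0.09, -0.05 and 0.02 (limma adjusted p = 0.832, 0.906 and 0.967). The gene called lower was Cd36, a fatty acid transporter named here after its value was seen, which fell by 1.32 on the log2 scale (limma adjusted p = 0.0291). It was not called when control 3, control 4, ICI-myocarditis 2 or ICI-myocarditis 3 was left out. Of the 6 called higher, Apoc2, an apolipoprotein named for this reason, passed the filter only through the 3 ICI-myocarditis libraries (0 to 6.26 normalized counts in controls and 23.9 to 86.3 in ICI-myocarditis), so that it had to differ.

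Fabp5, a carrier of fatty acids within cells, moved against the set. It was at 1401, 2013, 1721 and 1873 normalized counts in controls 1 to 4 and at 1047, 878 and 989 in ICI-myocarditis 1 to 3. Every ICI-myocarditis library was below every control. Means were 1752 ± 263 (SD, n = 4) and 972 ± 85.6 (SD, n = 3). The log2 fold change of Fabp5 was -0.84 (SE 0.188, limma adjusted p = 0.0169). This call was lost without control 3, ICI-myocarditis 2 or ICI-myocarditis 3 (limma adjusted p = 0.0532, 0.0810 and 0.0609), while the fold change stayed between -0.94 and -0.77 with any library left out.

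Fabp4 fell together with Fabp5. Of 4 tested fatty acid binding proteins, these 2 were called lower and 0 higher by limma (4.00% and 11.7% of all tested genes). The median over the 4 was -0.94. At an unadjusted p under 0.05, 0 were higher, and edgeR called 2 lower and 0 higher. Fabp4, an endothelial and fat cell form, ran from 15568 to 27932 normalized counts in controls and from 5612 to 13788 in ICI-myocarditis, and fell by 1.38 (limma adjusted p = 0.0304). Fabp3, the heart muscle form, had a log2 fold change of -0.69 (limma adjusted p = 0.390), and Fabp7, a brain and glial form present at 5.07 to 19.2 normalized counts, one of -1.04 (limma adjusted p = 0.141). Without control 3, ICI-myocarditis 2 or ICI-myocarditis 3, 0 of these genes were called, and without control 4 only 1. Endothelial markers were lower in the same libraries: 4 of 6 were called lower, with summed levels of 25430 to 64043 normalized counts in controls and 15952 to 23489 in ICI-myocarditis, and none of the 6 was at 0. Summed levels of heart muscle markers overlapped, at 2248918 to 4482982 in controls and 1722872 to 2704832 in ICI-myocarditis. All 6 of these markers had log2 fold changes below 0, and limma called 0 of them. The part of either cell type in the levels of Fabp5, Fabp4, Fabp3 and Cd36 was not tested. All 6 fat cell markers stayed below the filter, with sums of 11.1 to 218 in controls and 3.82 to 9.21 in ICI-myocarditis.

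Gpnmb, a lysosomal and surface glycoprotein of lipid-laden phagocytes, was at 41.3, 46.9, 44.7 and 13.8 normalized counts in controls 1 to 4. It was at 160, 188 and 995 in ICI-myocarditis 1 to 3. The groups were apart, but ICI-myocarditis 3 was 5.72 times the mean of the other 2. Means were 36.7 ± 15.4 (SD, n = 4) and 448 ± 474 (SD, n = 3), so that the SD exceeded the mean in ICI-myocarditis. The log2 fold change of Gpnmb was 3.19 (SE 0.673, limma adjusted p = 0.0136). Without ICI-myocarditis 3 it was 2.35 (limma adjusted p = 0.0382), and the ratio of means was 4.75 in place of 12.2. The authors' deposited table gave Gpnmb a log2 fold change of 3.61 without a p-value.

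Gpnmb is a known target of the MiT transcription factors, which drive lysosomal genes. Of 13 tested MiT and lysosome genes, 4 were called higher and 0 lower by limma (11.7% and 4.00% of all tested genes). The list median was 0.54, and edgeR called 4 and 0. At an unadjusted p under 0.05, 0 were lower. Acp5, an acid phosphatase of osteoclasts and activated macrophages, was at 11.3 to 59.2 normalized counts in controls and 475 to 813 in ICI-myocarditis, a log2 fold change of 4.49 (limma adjusted p = 0.00251). Gla, a lysosomal galactosidase, rose by 1.65 (limma adjusted p = 0.00492) and Tfec, an MiT factor found mainly in macrophages, by 2.22 (limma adjusted p = 0.0103). Tfeb, Lamp1 and Atp6v0d1, which serve lysosomes in most cells, had log2 fold changes of 0.08, 0.09 and 0.17 (limma adjusted p = 0.804, 0.880 and 0.606). Without ICI-myocarditis 3, 2 of the list were called higher.

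Spp1, which encodes the secreted matrix protein osteopontin, had the largest fold change of the 6. It was at 8.07, 40.7, 7.82 and 6.26 normalized counts in controls 1 to 4 and at 256, 254 and 400 in ICI-myocarditis 1 to 3. Control 2 stood above the other controls, and the lowest ICI-myocarditis library was above it. Means were 15.7 ± 16.7 (SD, n = 4) and 303 ± 83.5 (SD, n = 3). The log2 fold change of Spp1 was 4.58 (SE 0.597, limma adjusted p = 0.0034). Without control 2 it was 5.16 (limma adjusted p = 1.91e-05). The gene then passed the filter only through the 3 ICI-myocarditis libraries, so that it had to differ.

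Cd9, a tetraspanin of the cell surface and of extracellular vesicles, was at 1145, 1737, 1736 and 1653 normalized counts in controls 1 to 4. It was at 1600, 1304 and 1676 in ICI-myocarditis 1 to 3, inside the range of the controls. Means were 1568 ± 284 (SD, n = 4) and 1527 ± 196 (SD, n = 3). The log2 fold change of Cd9 was -0.03 (SE 0.210, limma adjusted p = 0.951), with a 95% interval from -0.50 to 0.45 that leaves room for a change of that size either way.

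Partners of the surface and secreted members were also read. Of 15 tested osteopontin receptors, GPNMB binding partners, tetraspanins and tetraspanin partners, 8 were called higher and 0 lower by limma. Over all tested genes these shares were 11.7% and 4.00%. The list median was 1.01, and edgeR called 8 and 0. At an unadjusted p under 0.05, 0 were lower. Cd44, an osteopontin receptor, was at 825 to 1303 normalized counts in controls and 4021 to 7833 in ICI-myocarditis, a log2 fold change of 2.52 (limma adjusted p = 0.00251). Sdc4, a syndecan bound by GPNMB, rose by 1.68 (limma adjusted p = 0.00363), and the leukocyte tetraspanin Cd53 by 2.62 (limma adjusted p = 0.00398). Itgb1, Itga9 and Ptgfrn, widely expressed integrin chains and a tetraspanin partner, had log2 fold changes of -0.06, 0.13 and 0.28 (limma adjusted p = 0.916, 0.753 and 0.517).

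**Figure D2:**
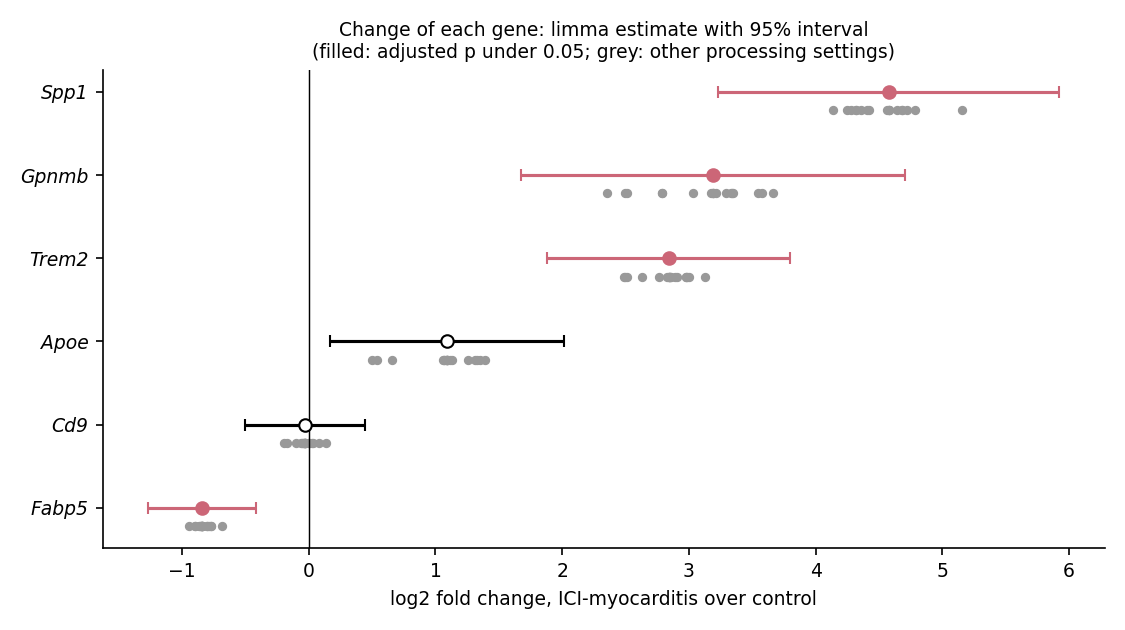
Log2 fold change of each gene in ICI-myocarditis over control from limma, with its 95% interval, and below it in grey the values under the other processing settings. Spp1, Gpnmb and Trem2 lie between 2.35 and 5.16 in every setting run, the interval of Cd9 spans 0, and the Apoe values run from 0.50 to 1.39.

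Other genes of the lipid-associated state were read as a list. Of 26 tested, limma called 16 higher and 0 lower (11.7% and 4.00% of all tested genes), with a median of 1.42. Without ICI-myocarditis 3, limma called 11 higher. With all libraries, edgeR called 15 and 0. At an unadjusted p under 0.05, 1 was lower (Lpl). Lgals3, a galectin of phagocytes, was at 79.3 to 408 normalized counts in controls and 2751 to 6100 in ICI-myocarditis, a log2 fold change of 4.85 (limma adjusted p = 0.00275). The lysosomal cholesterol carrier Npc2 rose by 1.82 (limma adjusted p = 0.00286). Plin2, which coats lipid droplets, and the cathepsins Ctsd and Ctsl had log2 fold changes of 0.04, 0.08 and -0.20 (limma adjusted p = 0.905, 0.910 and 0.627). Lpl, a lipase that heart muscle also makes in large amounts, was at 107851 to 252634 normalized counts in controls and 55257 to 122153 in ICI-myocarditis, a log2 fold change of -1.02 that did not pass (limma adjusted p = 0.150). Lpl was named after its value was seen. Heart muscle markers had log2 fold changes below 0 with 0 called by limma, and the part of heart muscle RNA in Lpl was not tested.

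**Figure D3:**
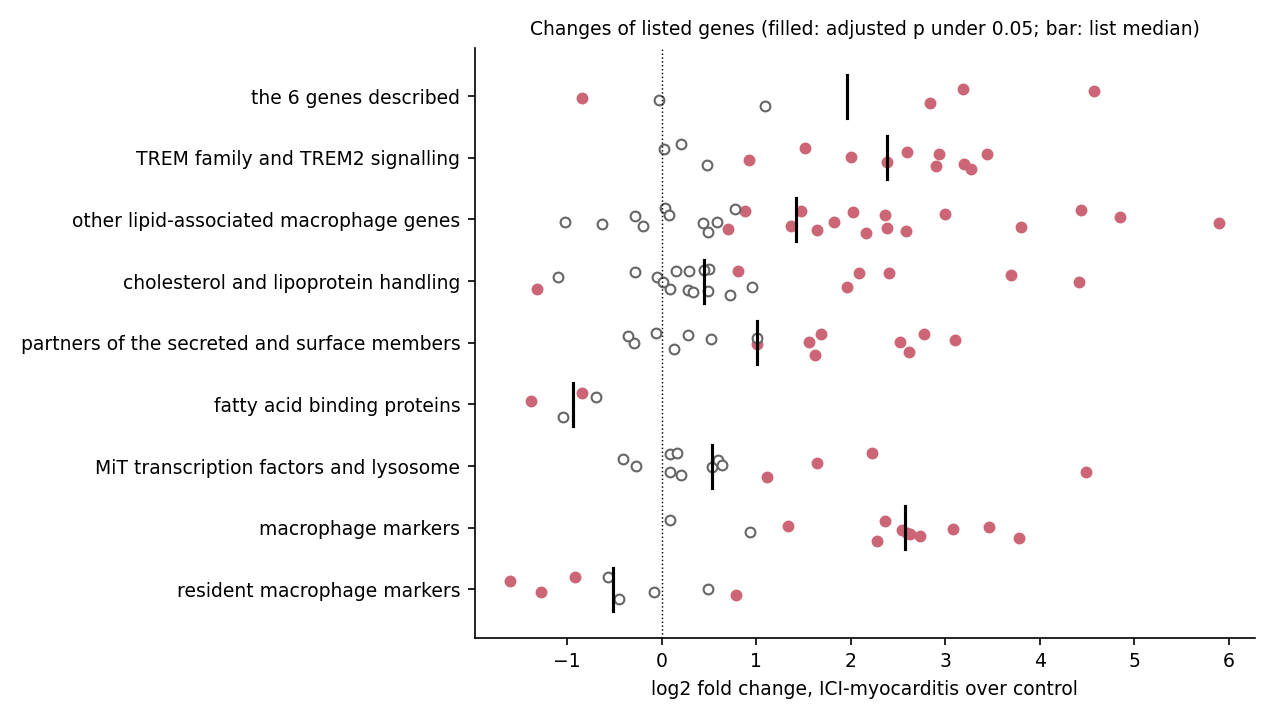
Log2 fold change of every tested gene of each list in ICI-myocarditis over control, filled where limma's adjusted p was under 0.05, with the list median as a bar. The 6 genes spread from -0.84 to 4.58, the fatty acid binding proteins all lie below 0, and the macrophage markers centre at 2.57.

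Differences among the 6 genes were compared directly, as the change of 1 gene minus that of another over the 7 libraries. Of 15 pairs, 10 passed an exact two-sided permutation test adjusted over the pairs (adjusted p = 0.0429, from the smallest p the design allows, 0.0286). Fabp5 differed from each of the other 5 genes, with a change lower than that of Cd9 (Fabp5 minus Cd9, -0.81), Gpnmb (-4.03) and Spp1 (-5.42), and below Trem2 (Trem2 minus Fabp5, 3.68) and Apoe (Apoe minus Fabp5, 1.93). Trem2, Gpnmb and Spp1 exceeded Cd9 by 2.87, 3.21 and 4.60. Trem2 exceeded Apoe by 1.75, and Apoe minus Gpnmb was -2.09. The other 5 pairs did not pass. They were Trem2 minus Gpnmb (-0.35, exact permutation adjusted p = 0.686), Trem2 minus Spp1 (-1.74, adjusted p = 0.0714), Apoe minus Spp1 (-3.48, adjusted p = 0.0714), Gpnmb minus Spp1 (-1.39, adjusted p = 0.153) and Apoe minus Cd9 (1.12, adjusted p = 0.0989).

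The order of levels also changed, when compared per kilobase of the principal transcript. In controls Apoe led at 8010 ± 582 normalized counts per kb (SD, n = 4), followed by Fabp5 at 1775 ± 266, Cd9 at 1277 ± 232, Trem2 at 65.7 ± 24.4, Spp1 at 10.4 ± 11.1 and Gpnmb at 9.91 ± 4.17. In ICI-myocarditis Apoe led at 20059 ± 14667 (SD, n = 3), followed by Cd9 at 1243 ± 160, Fabp5 at 984 ± 86.7, Trem2 at 476 ± 222, Spp1 at 201.2 ± 55.4 and Gpnmb at 121 ± 128. The lowest control Fabp5 value per kb (1420) was above the highest of Cd9 (1414), and in ICI-myocarditis the highest of Fabp5 (1060) was just below the lowest of Cd9 (1062), so these neighbours came close in both groups. Spp1 and Gpnmb overlapped in both groups, and the Trem2 range lay above both of theirs (299 to 725 in ICI-myocarditis, against at most 269).

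Macrophage markers were higher in ICI-myocarditis as well. Of 12 macrophage markers, 10 were called higher and 0 lower by limma (11.7% and 4.00% of all tested genes). Summed levels were 10602 to 15259 normalized counts in controls and 51716 to 102401 in ICI-myocarditis. None was at 0 in all libraries. Emr1, the older symbol of Adgre1 and the gene of a macrophage surface antigen, was at 792 to 1247 in controls and 4035 to 5801 in ICI-myocarditis. The mean log2 level of the 12 markers was 9.04, 9.77, 9.25 and 9.14 in controls 1 to 4 and 11.29, 11.35 and 12.22 in ICI-myocarditis 1 to 3, a difference of 2.32 (exact permutation p = 0.0286, two-sided). Trem2, Gpnmb and Spp1 were therefore set against this mean within each library.

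Relative to macrophage markers, Trem2 had a log2 level of -3.22 ± 0.545 (SD, n = 4) over controls and of -2.70 ± 0.262 (SD, n = 3) over ICI-myocarditis libraries, with overlapping ranges. The difference of 0.52 did not pass (exact permutation p = 0.143, adjusted over 6 genes 0.171), and it was 0.28 without control 1. Gpnmb was at -4.21 ± 0.740 and -3.34 ± 0.939, a difference of 0.87 (exact permutation p = 0.314, adjusted 0.314). For Gpnmb it was 0.33 without ICI-myocarditis 3 and 0.52 without control 4. Spp1 was higher against the markers in all 3 ICI-myocarditis libraries, from -5.66 ± 0.864 to -3.40 ± 0.147, a difference of 2.26 (exact permutation p = 0.0571, adjusted 0.0857).

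Fabp5, Cd9 and Apoe were lower against the macrophage markers in every ICI-myocarditis library than in any control. The marker mean itself rose by 2.32, so a gene whose level stays the same falls by that amount against it. Cd9 had a log2 fold change of -0.03, so its fall is that of the reference. The share of all genes that fall against the markers was not counted. The differences were -3.16 for Fabp5 and -2.34 for Cd9 (exact permutation p = 0.0286 for both, the smallest possible) and -1.22 for Apoe (exact permutation p = 0.0571). Adjusted over the 6 genes each came to 0.0857, so that none of the 6 passed. A gene at the smallest possible p cannot pass this adjustment unless several of the others reach it too, so the failure says little about any 1 gene.

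**Figure D4:**
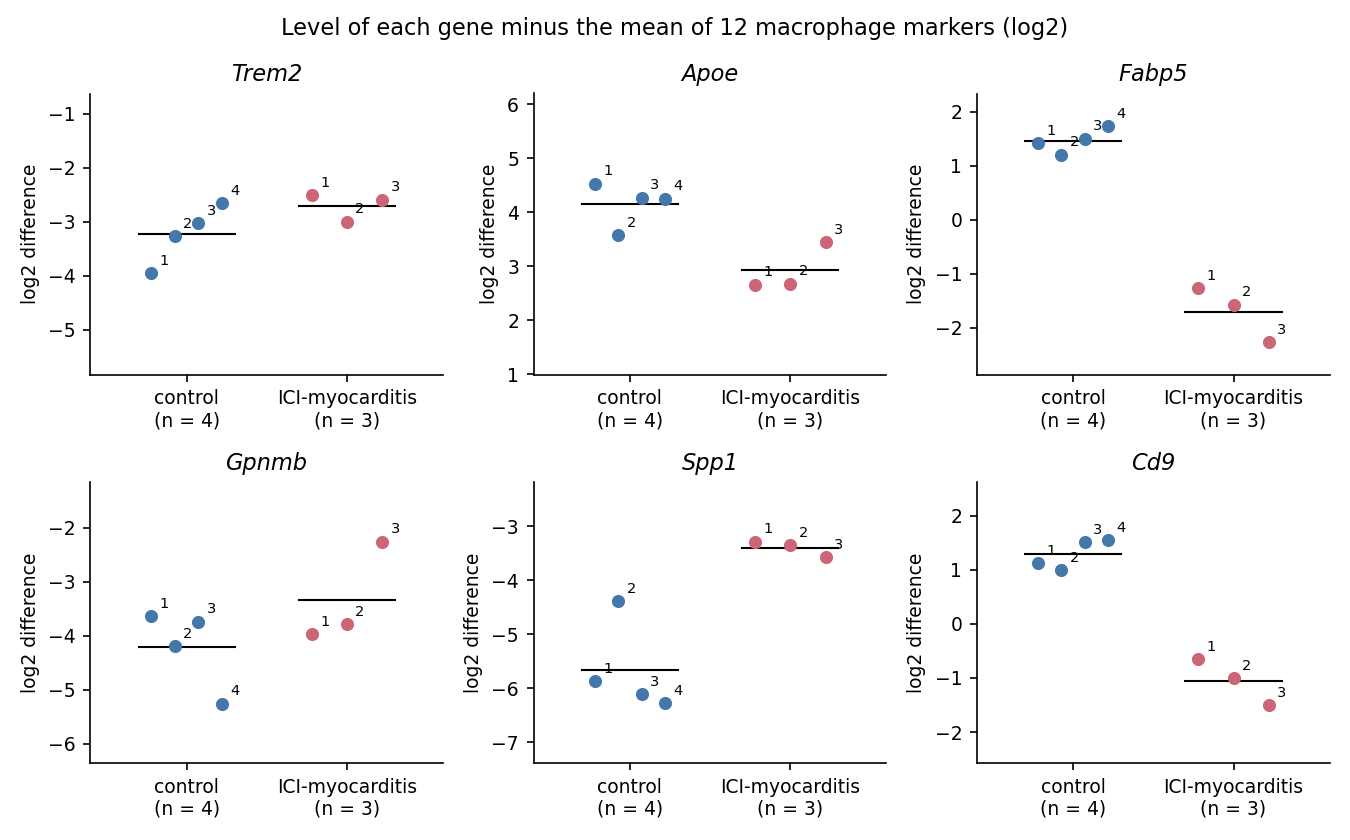
Log2 level of each gene minus the mean log2 level of 12 macrophage markers in the same library, for 4 control (blue) and 3 ICI-myocarditis (red) libraries, with group means as bars. Trem2 and Gpnmb overlap between groups, Spp1 lies higher in ICI-myocarditis, and Apoe, Fabp5 and Cd9 lie lower.

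ICI-myocarditis 3 differed from the other 2 libraries of its group in the members. Its level over the mean of ICI-myocarditis 1 and 2 was 5.72 for Gpnmb, 3.19 for Apoe, 2.06 for Trem2, 1.57 for Spp1, 1.15 for Cd9 and 1.03 for Fabp5. At 2-fold or more it stood above them for 3.92% of 15255 genes. All 12 macrophage markers were highest in this library among the 3, with a median ratio of 1.95, against 0 of 6 heart muscle markers, with a median ratio of 0.65. Some other cell types were also raised there. The median ratio was 1.65 for T cell markers (4 of 5 highest), 1.63 for mesothelial (5 of 6), 1.62 for monocyte (5 of 6), 1.57 for Schwann cell (4 of 6) and 1.46 for fibroblast markers (4 of 6). It was nearer to 1 for dendritic cell (1.27), resident macrophage (1.12), endothelial (1.11), platelet (0.98) and mural markers (0.97). The share of all genes that were highest in this library was not counted. Gpnmb was at -2.26 against the macrophage markers there and at -3.97 and -3.78 in the other 2, and Apoe at 3.45 against 2.66 and 2.68. The part of any of these cell types in the levels of Gpnmb and Apoe was not tested.

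The genes whose pattern over the 7 libraries was most like each member were found by the root mean square difference of log2 levels centred on each gene's mean, with no test. For Trem2 they were Kcnk13, a potassium channel (0.21), Ms4a6d, a membrane protein of myeloid cells (0.23), and Clec4a2, a C-type lectin (0.26), where the median over all tested genes was 1.56. For Spp1 they were Oas3, an interferon-induced enzyme (0.18), Cd72, a lymphocyte and myeloid receptor (0.19), and Tff1 (0.22), which was at 0 in 3 controls. Like Spp1, Oas3 and Cd72 were higher in control 2 (255 and 276 normalized counts) than in the other controls (38.3 to 40.2 and 47.5 to 73.7).

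For Gpnmb the nearest genes were less close, Gpr176 (0.42), Dkk3 (0.43) and Unc5c (0.47), an orphan receptor, a secreted glycoprotein and a netrin receptor, with a median of 1.87 over all genes. Dkk3 was at 584, 891 and 2298 normalized counts in ICI-myocarditis 1 to 3, with the third library highest as for Gpnmb. For Apoe they were the adhesion molecule Ncam1 (0.19), the deiodinase Dio2 (0.20) and the receptor Ephb6 (0.22), against a median of 0.87, and Ncam1 was at 492, 558 and 1131 in ICI-myocarditis. For Fabp5 they were Zfp108 (0.11), Wwtr1 (0.15) and Zfp383 (0.15), against 0.58, and for Cd9 they were Vamp4 (0.04), Med17 (0.06) and Exoc5 (0.07), against 0.48. Zfp108 and Zfp383 encode zinc finger proteins, Wwtr1 a transcriptional coactivator, and Vamp4, Med17 and Exoc5 proteins of vesicle fusion, transcription and exocytosis.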

How the data were processed

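RNA of 7 mouse hearts was read from 1 table of 23420 gene rows. The deposited values per library are a signal: the authors divided gene counts by a size factor, as their whole steps show. The table also holds log2 fold changes with errors, a test score and p-values from the authors' comparison, per the file headers. STAR 2.7.3 and GRCm38 are named in the submitters' processing notes, and the counter, annotation and use of strand are not given in the sources used here. Dividing by the smallest step gave whole reads for 100% of values within 0.1, with a step of 1.01 in control 1 that makes this a weaker sign there.

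limma (version 3.58.1, R 4.3.3) was run on log2(normalized count + 1), with trend and robust variance, for genes with at least 10 normalized counts in 3 libraries, adjusted by Benjamini-Hochberg over all 15258. Fold changes of low genes on that scale depend on the added count. For Spp1 the value was 4.64 with 0.5 added, 4.58 with 1 and 4.14 with 5. Count-based values for Spp1 were lower than 4.58 at 4.25 with edgeR, 4.28 with DESeq2 and 4.28 as deposited by the authors. With limma-voom and quality weights on recovered reads the value was higher, at 4.79. edgeR (version 4.0.16) and DESeq2 (version 1.42.0) on recovered reads were alternatives. Single differences used exact permutation over 35 splits. Genes at an unadjusted p under 0.05 were counted within lists only, so no share over all genes stands beside those counts. Promoters came from RefSeq (5 of 6 genes matched), lengths from GENCODE M21. Adgre1 and Chil3 were matched by their older symbols, and Trac was not found. The members and lists were chosen with earlier results of these data known. Named list genes are the 3 called with the lowest p and the 3 with the largest p, with Tyrobp, Syk, Plcg2 and Adam17 fixed by name and likeness genes skipping predicted names. The values of 1 gene so named are not reported here. Columns of other samples numbered 0. Libraries of a group differed by far more than counting noise.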

Additional observations from a re-analysis of the deposited data

Results flagged for a closer look

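In the 4 controls, 3 of 12 values had a library whose gap to the next took more of the group's range than Dixon's 95% critical value, where chance gives about 1 in 20. For Gpnmb it was control 4, on the low side, with a gap of 0.896 of the range. For Spp1 it was control 2, on the high side, with 0.873. For Cd9 it was control 1, on the low side, with 0.881. The 12 values were the log2 levels of the 6 genes and their levels against the macrophage markers.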

How the results depend on the processing

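Trem2, Gpnmb and Spp1 kept their direction and their call in every setting that could test them. Spp1 fell below the filter when control 2 and ICI-myocarditis 3 were both left out (chosen after seeing the data), and DESeq2 gave Gpnmb no adjusted p. Without control 2 alone, Spp1 passed the filter only through the ICI-myocarditis libraries, so that it had to differ. The same held for Spp1 and Gpnmb under a filter of 50 normalized counts. Apoe passed only with DESeq2, at 1.32. Fabp5 did not pass with scaling by library size (-0.68), which moved the median of all genes to 0.14, with the replicate block (-0.80) or with both libraries left out (-0.79), where 0 members were called lower in place of 1. With 1 library left out, the ranges were 2.49 to 3.12 for Trem2, 4.31 to 5.16 for Spp1, 2.35 to 3.67 for Gpnmb, 0.54 to 1.39 for Apoe, -0.94 to -0.77 for Fabp5 and -0.17 to 0.08 for Cd9, with 3 members called higher in each and 0 to 1 lower. The sign of Cd9 turned with scaling by library size (0.13), with the replicate block (0.006) and without control 2, 3 or 4 or ICI-myocarditis 2 (0.03, 0.03, 0.006 and 0.083). The deviations of same-numbered libraries had correlations of -0.271, -0.206 and -0.0784, which gave no sign of pairing by replicate number. Pairs with different numbers ran from -0.477 to 0.451, so that this check is too weak to show that pairing is absent. With the replicate block, 1780 genes were called in place of 2397, and over all settings 986 to 4038. Without ICI-myocarditis 3 the 986 calls included 829 higher. limma-voom with quality weights gave 4038 calls and edgeR 2131. Of the 10 member pairs that passed, 0 changed sign in any setting, and all 10 passed with both other pseudocounts, while leaving out a library cannot pass (smallest exact permutation p 0.1 or 0.0667). The difference of Trem2 from Gpnmb, not called, turned to 0.19 without control 4 and 0.14 without ICI-myocarditis 3, and ranged from -0.78 to 0.19 with 1 library left out. The causes were not tested.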

Other observations

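Markers of resident cardiac macrophages, the cells that the healthy heart holds, did not follow Trem2. Of 8 tested, limma called 1 higher and 3 lower (11.7% and 4.00% of all tested genes), with a median of -0.51. Summed levels were 13574 to 14782 normalized counts in controls and 11268 to 15292 in ICI-myocarditis. The scavenger receptor gene Cd163 fell by 0.92 and F13a1, a transglutaminase of resident macrophages, fell by 1.60, while the mannose receptor gene Mrc1 rose by 0.79 (limma adjusted p = 0.00795, 0.00407 and 0.0395). Timd4, a receptor of the self-renewing resident cells, was at 76.6 to 128 in controls and 128 to 157 in ICI-myocarditis, a log2 fold change of 0.49 (limma adjusted p = 0.261). These genes were picked from their list after the values were seen.

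Spp1, Gpnmb and Acp5 are also genes of osteoclasts and mineralising tissue. Of 10 markers of such cells, 5 passed the filter. Among these, limma called Acp5 and Runx2 higher and 0 lower (11.7% and 4.00% of all tested genes). The other 3 tested were Ctsk, a collagen-degrading protease (log2 fold change 0.64, limma adjusted p = 0.115), Oscar, an osteoclast receptor (-1.14, adjusted p = 0.165), and Alpl, an alkaline phosphatase (-0.85, adjusted p = 0.133). At an unadjusted p under 0.05, 3 of the 5 were higher and 2 lower. The share of all tested genes at that unadjusted p was not counted, and it is at least the 15.7% called after adjustment. Runx2, a transcription factor of bone cells that lymphocytes also use, was at 28.8 to 159 normalized counts in controls and 436 to 1091 in ICI-myocarditis, a log2 fold change of 3.24 (limma adjusted p = 0.00657). The bone matrix genes Ibsp and Bglap were at most at 1.01 and 3.06 normalized counts in any library, and the osteoblast factor Sp7 at most at 5.04. Ocstamp, of fusing osteoclasts, was below the filter at 0 to 6.17 in controls and 8.70 to 48.9 in ICI-myocarditis.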
